A study of Mus musculus with 12 samples.

Results

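The Z-disc and stretch-sensing genes described here are 8 genes of the 56162 features in the tables: Ankrd2, Csrp3, Myoz1, Myoz2, Actn2, Actn3, Ldb3 and Tcap. They were chosen by name with earlier results of these data known, so their calls set beside those of all genes are a description. All 8 were found once in the tables and passed the filter on low counts that left 11747 genes. Their messenger RNA was measured by RNA sequencing in 12 libraries of myofibers from male C57BL/6J mice with an age of 8 weeks on the labels, with 3 libraries in each of 4 groups. The groups were type I trained, type I untrained, type IIb trained and type IIb untrained. The soleus supplied the type I myofibers, and the extensor digitorum longus, which is a fast muscle of the lower leg, supplied the type IIb myofibers. Training was treadmill running for 6 weeks (60 min at 12 to 16 m/min on 5 days of each week), and tissue was taken 3 days after running ended, while untrained mice were the controls. Collagenase (2 mg/ml, 37 °C) freed the fibres, with 90 min of digestion given to soleus but 60 min to extensor digitorum longus. A piece of every fibre went to identification of its myosin heavy chain protein, and the remainder was lysed for sequencing. Because muscle and digestion time changed with the fibre type, their parts in a fibre type difference cannot be told apart. The labels name no separate animals and give no number of fibres per library, so the spread that p-values rest on is that between libraries, and it may be technical.

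The Z-disc is the plate at which the thin filaments of neighbouring sarcomeres are joined, and its lattice is built from alpha-actinin dimers that crosslink actin and hold the end of titin. Smaller proteins bound to alpha-actinin and titin steady the lattice, and several of them, among them the muscle LIM protein encoded by Csrp3 and the ankyrin-repeat protein encoded by Ankrd2, are also found in the nucleus and are linked to the response of muscle to stretch. Slow and fast fibres differ in which paralogs they use, with ACTN3 known as the alpha-actinin of fast fibres, and with the calsarcins of the Myoz family, which bind calcineurin as well as alpha-actinin, divided between a fast form (Myoz1) and a form of slow and cardiac muscle (Myoz2).

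The libraries held 8026397 to 24995288 counts. Myh7, the slow myosin heavy chain, gave 80.5% to 99.8% of the counts of the 4 adult myosin genes (with Myh1, Myh2 and Myh4) in type I libraries, and Myh4, the type IIb myosin, gave 99.7% to 100% in type IIb libraries. The lowest Myh7 share was in type I untrained library 1, which also held 10.5% Myh2 and 8.92% Myh1. Some libraries stood apart. The summed CPM (counts scaled to the library total) of 7 endothelial markers ran between 0.0718 and 29.5 in type I trained libraries, between 7.54 and 521 in type I untrained libraries and up to 87.7 in type IIb trained libraries, with 7 of the 7 markers at 0 in every type IIb untrained library. Type I untrained library 3 held 8825 CPM of 6 fibroblast markers, against at most 187 CPM in the other libraries. Type I trained library 3 had 5.86% of its counts from mitochondrially encoded genes, against 14.6% to 34.7% in the other 11 libraries, and the highest TMM scaling factor (1.62). Genes with at least 10 counts numbered between 6082 and 11852 in type I trained libraries, 9711 and 14428 in those of type I untrained fibres, 4291 and 10932 in those of type IIb trained fibres, and 3636 and 9170 in those of type IIb untrained fibres. The part of these differences in the results below was not tested directly. Some counts of called genes are therefore also given without 2 sets of libraries. The first set is the 3 libraries highest in endothelial markers (type I untrained 1 and 3, type IIb trained 3). The second is the 2 with the fewest genes (type IIb trained 1 and type IIb untrained 1). Both choices were made after seeing the data. Without the first set, type I untrained library 2 is alone in its group. Calls of single genes involving that group are therefore not given there. A count over all genes from that fit is listed at the end, and no conclusion is drawn from it.

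Of the 8 genes 5 separated the fibre types, in trained and in untrained mice alike: Ankrd2, Csrp3 and Myoz2 were higher in type I fibres, and Myoz1 and Actn3 were lower. Levels are given as FPKM, counts scaled to gene length and library total, with the libraries of a group in the order of their numbers 1, 2 and 3. Tests were made on the counts with edgeR's quasi-likelihood test over all 11747 genes, and genes count as called where p, adjusted by Benjamini and Hochberg's method, was under 0.05. Across all genes, 0.536% were called in the comparison of type I with type IIb fibres in trained mice (0.238% higher and 0.298% lower) and 0.46% in untrained mice (0.255% higher and 0.204% lower), against 5 of the 8 genes (3 higher and 2 lower) in each. An unadjusted p under 0.05 in edgeR's test was reached by 6 of the 8 in trained mice (those 5 and Tcap), against 8.03% of all genes, and by 5 in untrained mice, against 17.5% of all genes. Without the 3 libraries highest in endothelial markers, 4 of the 8 were called in trained mice (all but Actn3 of those 5), against 0.46% of all genes in the same fit. In untrained mice type I library 2 was then alone in its group, with log2 fold changes of -5.13 for Myoz1 and -10.97 for Actn3. Without the 2 libraries with the fewest genes, 5 were called in trained and 4 in untrained mice, against 0.562% and 0.502% of all genes, and in untrained mice Myoz1 had an adjusted p of 0.101 in edgeR's test. The median log2 fold change of the 8 genes was 1.43 in trained mice, beside 0.21 over all genes, and 2.43 in untrained mice, beside 0.85 over all genes.

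**Figure D1:**
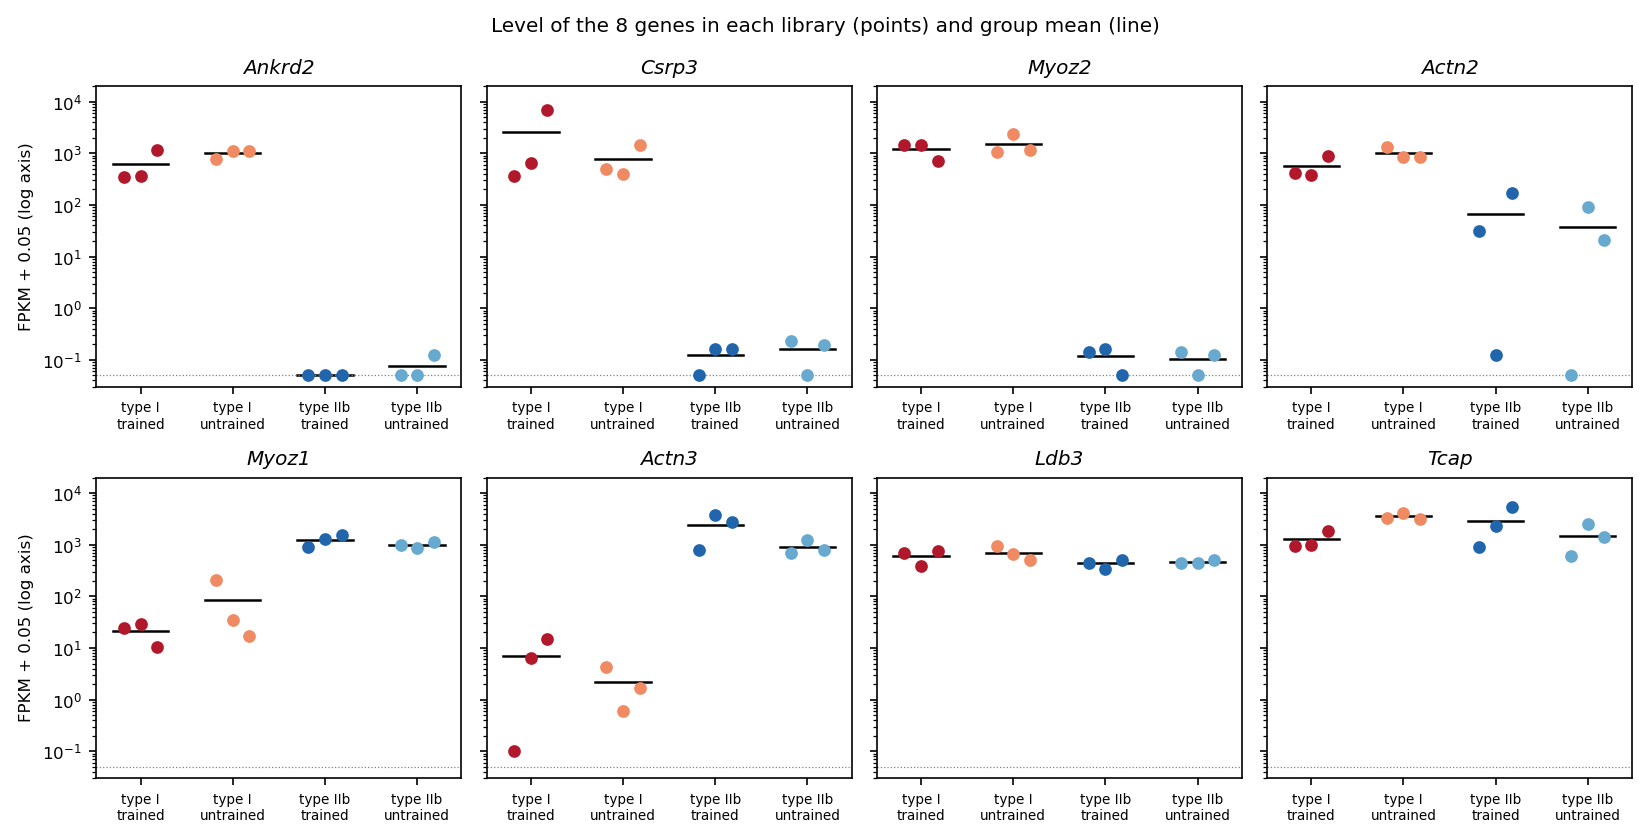
Level of each of the 8 genes in every library, as FPKM plus 0.05 on a log axis, by group (type I trained, type I untrained, type IIb trained, type IIb untrained); points are libraries in the order 1 to 3, solid lines are group means and the dotted line marks a value of 0. Ankrd2, Csrp3 and Myoz2 lie at or above 346 FPKM in every type I library and at or below 0.180 FPKM in every type IIb library, Myoz1 and Actn3 show the opposite order, and Ldb3 lies between 342 and 934 FPKM in all 12.

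Ankrd2 (ENSMUSG00000025172; chr19:42036000-42045110, plus strand, mm10, from GENCODE M21) encodes an ankyrin-repeat protein of the titin-binding family that moves between the sarcomere and the nucleus. It had 346, 357 and 1155 FPKM in type I trained libraries and 787, 1093 and 1092 FPKM in type I untrained libraries, against 0, 0 and 0 FPKM in type IIb trained libraries and 0, 0 and 0.0742 FPKM in type IIb untrained libraries. The type IIb value that was not 0 was a single count, and no type IIb library came near any type I library. In trained mice the log2 fold change, type I over type IIb, was 15.98 ± 1.23 (SE; edgeR adjusted p = 1.42e-06), and counts pooled over the groups were at least 5971-fold higher in type I, taking 3 counts over the group as the floor. In untrained mice it was 14.40 ± 1.11 (edgeR adjusted p = 1.16e-06), and the pooled ratio was 27080 with a 95% counting interval of 4860 to 1069610.

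Csrp3 (ENSMUSG00000030470; chr7:48830398-48848033, minus strand) encodes muscle LIM protein, which binds alpha-actinin and telethonin. It had 367, 657 and 6859 FPKM in type I trained libraries and 493, 401 and 1442 FPKM in type I untrained libraries, against 0, 0.109 and 0.114 FPKM in type IIb trained libraries and 0.180, 0 and 0.145 FPKM in type IIb untrained libraries. Library 3 of type I trained fibres, the library low in mitochondrially encoded genes, stood over 4 times above every other library. It held 109119 of the 120786 type I trained counts, so the pooled ratio in trained mice rests mainly on this library. The type IIb libraries held 3 counts in all when trained and 4 when untrained. Type I exceeded type IIb by a log2 fold change of 14.12 ± 1.37 in trained mice (edgeR adjusted p = 6.07e-06), a pooled ratio of 27970 with a 95% counting interval of 9571 to 135633. In untrained mice it was 12.18 ± 1.28 (edgeR adjusted p = 1.57e-05), a pooled ratio of 6402.

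Myoz2 (ENSMUSG00000028116; chr3:123006206-123035015, minus strand) encodes calsarcin-1. It had 1453, 1429 and 700.5 FPKM in type I trained libraries and 1049, 2343 and 1134 FPKM in type I untrained libraries, against 0.0921, 0.109 and 0 FPKM in type IIb trained libraries and 0.0900, 0 and 0.0725 FPKM in type IIb untrained libraries. Each type IIb group held 2 counts of it in all. In log2 terms the excess in type I was 13.94 ± 1.2 in trained mice (edgeR adjusted p = 1.55e-06; pooled ratio 15221, 95% counting interval 4213 to 125687) and 14.25 ± 1.21 in untrained mice (edgeR adjusted p = 1.16e-06; pooled ratio 19439, 95% counting interval 5381 to 160518). Counting intervals cover counting error only, because amplified reads carry no molecular identifiers. Leaving out any single library kept the calls of Ankrd2, Csrp3 and Myoz2 in both comparisons, as did every other edgeR setting with replicate libraries in every group. With limma-voom and quality weights, Csrp3 had an adjusted p of 0.143 in trained and 0.0726 in untrained mice, and Myoz2 one of 0.0511 in trained mice. Here and below, fewer fibres of a type and less RNA per fibre cannot be told apart.

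These 3 genes share the difference between fibre types, though not their order among type I libraries: in type I trained library 3 Csrp3 was at its highest and Myoz2 at its lowest of all type I libraries. The 250 bases before their RefSeq starts are shown beside those of Ldb3, for which no fibre type difference was called. RefSeq windows (build GRCm38.p6) were found for 5 of the 8 genes; the window of Actn2 is not printed, and Myoz1, Actn3 and Tcap are named only. Capitals mark matches to the E-box CANNTG (bound by the MyoD family), to the consensus of MEF2 and to the CArG box of serum response factor. The M-CAT element CATTCC was searched too. Both strands were read, and a site that reads the same on both was counted once.
Ankrd2, chr19:42035777-42036026, plus strand: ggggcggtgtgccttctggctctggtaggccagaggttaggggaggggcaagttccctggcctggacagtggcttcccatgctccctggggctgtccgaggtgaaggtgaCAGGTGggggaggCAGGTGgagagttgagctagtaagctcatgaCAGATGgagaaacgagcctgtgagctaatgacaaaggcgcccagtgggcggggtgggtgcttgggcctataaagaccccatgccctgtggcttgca
Csrp3, chr7:48848052-48848301, minus strand: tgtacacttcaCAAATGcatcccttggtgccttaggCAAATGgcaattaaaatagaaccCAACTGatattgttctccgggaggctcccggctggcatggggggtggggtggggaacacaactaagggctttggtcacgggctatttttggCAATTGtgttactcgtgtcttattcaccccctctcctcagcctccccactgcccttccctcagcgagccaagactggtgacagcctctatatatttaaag
Myoz2, chr3:123034988-123035237, minus strand: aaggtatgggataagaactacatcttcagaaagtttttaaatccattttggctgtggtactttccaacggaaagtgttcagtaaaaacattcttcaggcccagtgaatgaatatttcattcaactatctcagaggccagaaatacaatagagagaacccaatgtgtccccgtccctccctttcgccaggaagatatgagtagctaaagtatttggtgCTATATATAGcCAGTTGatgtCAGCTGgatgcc
Ldb3, chr14:34588682-34588931, minus strand: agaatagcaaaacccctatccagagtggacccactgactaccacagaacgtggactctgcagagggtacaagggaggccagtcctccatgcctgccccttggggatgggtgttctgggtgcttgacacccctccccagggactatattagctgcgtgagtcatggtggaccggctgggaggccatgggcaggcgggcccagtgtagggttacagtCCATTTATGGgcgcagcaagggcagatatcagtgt
E-boxes numbered 3 for Ankrd2, 4 for Csrp3, 2 for Myoz2 and 3 for Actn2, and Ldb3 had 0. An E-box was present in 66.2% of all 32544 windows of this length. RefSeq and GENCODE M21 starts lay 27 bases apart for Ankrd2, 18 for Csrp3, 28 for Myoz2, 28 for Actn2 and 1 for Ldb3. The MEF2 consensus stood only before Myoz2 among the 5 genes, 33 to 24 bases upstream of the RefSeq start and 1 base away from the nearer E-box, and 2.89% of all windows held one. By the GENCODE start, both Myoz2 E-boxes and part of the MEF2 match lie inside the gene. The CArG box stood only before Ldb3, 35 to 26 bases upstream, and 1.48% of all windows held one. CATTCC was in none of the 5 windows and in 12.6% of all windows. The letters of a window show neither binding nor use of a site.

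Myoz1 (ENSMUSG00000068697; chr14:20649107-20656540, minus strand) encodes calsarcin-2, the fast form, and ran the other way. It had 24.6, 28.6 and 10.5 FPKM in type I trained libraries and 207, 35.0 and 16.9 FPKM in type I untrained libraries, against 886, 1285 and 1521 FPKM in type IIb trained libraries and 985, 880.02 and 1127 FPKM in type IIb untrained libraries. Unlike the slow genes, it was present in every library of the other fibre type. The highest type I value was in untrained library 1, where the summed CPM of the 6 type IIb fibre markers was 4485, against 305 to 749.9 in the other type I libraries. Myh4, 1 of those markers, gave only 0.0523% of the counts of the 4 myosin genes there. The summed CPM of Myh2 and Myh1 was 127 in that library, against at most 12.1 in the other type I libraries. Which fibres the Myoz1 counts came from was not tested. Relative to type IIb, the log2 fold change of type I was -6.05 ± 0.91 in trained mice (edgeR adjusted p = 0.00146), an 89.5-fold lower pooled level, and -4.12 ± 0.83 in untrained mice (edgeR adjusted p = 0.0240), a 22.7-fold lower pooled level. The call in untrained mice was lost without library 2 or 3 of type I untrained or library 2 or 3 of type IIb untrained fibres, with adjusted p between 0.0502 and 0.150, and also in edgeR fits without the robust prior (adjusted p = 0.0834) or on the compared groups alone (adjusted p = 0.1004). DESeq2 gave no adjusted p for Myoz1 in either comparison.

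Actn3 (ENSMUSG00000006457; chr19:4861216-4877909, minus strand) encodes the fast alpha-actinin. It had 0.0533, 6.48 and 14.7 FPKM in type I trained libraries and 4.32, 0.551 and 1.65 FPKM in type I untrained libraries, against 785, 3676 and 2691 FPKM in type IIb trained libraries and 694, 1234 and 789 FPKM in type IIb untrained libraries. All type I libraries lay below all type IIb libraries, and the lowest, type I trained library 1, held 1 count. Relative to type IIb, type I had a log2 fold change of -9.10 ± 1.59 in trained mice (edgeR adjusted p = 0.0302), a 415-fold lower pooled level, and -9.35 ± 1.60 in untrained mice (edgeR adjusted p = 0.0304), a 721-fold lower pooled level. In trained mice the call was lost without library 2 or 3 of type I trained, any library of type I untrained or library 3 of type IIb untrained fibres. In untrained mice it was lost without library 2 or 3 of type I trained, any library of type I untrained, or library 2 or 3 of type IIb untrained fibres. The log2 fold change stayed between -9.63 and -8.44 in trained and between -10.27 and -8.94 in untrained mice over these fits, with adjusted p up to 0.209 and 0.377. With RLE in place of TMM scaling the adjusted p was 0.0973 in trained and 0.102 in untrained mice. With limma-voom and quality weights it was 0.665 in trained and 0.196 in untrained mice. In trained mice edgeR gave an adjusted p of 0.230 on the compared groups alone and 0.507 without the 3 libraries highest in endothelial markers.

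**Figure D2:**
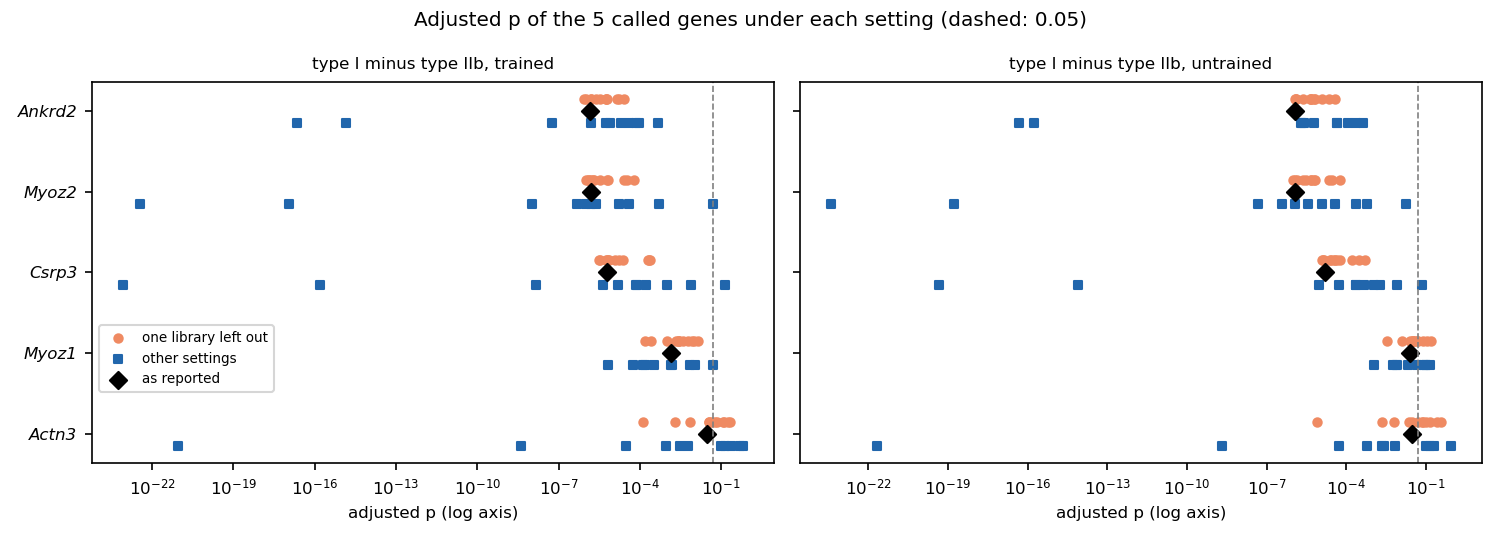
Adjusted p of the 5 called genes in the comparison of type I with type IIb fibres, in trained (left) and untrained mice (right), on a log axis: black diamonds are the values reported, orange circles the fits without 1 library, blue squares the other settings, and the dashed line is 0.05. Ankrd2 stays left of the line throughout. Myoz1, Actn3 and Csrp3 have points on both sides of it in both panels, and Myoz2 does in trained mice.

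Actn2 (ENSMUSG00000052374; chr13:12269426-12340760, minus strand) encodes the alpha-actinin that slow and cardiac muscle use and that fast fibres also carry. It had 413, 372 and 889 FPKM in type I trained libraries and 1307, 829.8 and 836 FPKM in type I untrained libraries, against 30.5, 0.0744 and 168 FPKM in type IIb trained libraries and 0, 88.9 and 21.2 FPKM in type IIb untrained libraries. The type IIb libraries ranged from 0 counts in untrained library 1, where 3 counts would be 0.185 FPKM, to 4290 counts in trained library 3. No type IIb library reached the lowest type I library. Its log2 fold change was 2.75 ± 2.09 in trained mice (edgeR adjusted p = 0.873) and 4.15 ± 2.23 in untrained mice (edgeR adjusted p = 0.428), with pooled ratios of 4.91 and 14.6, so the difference was not called against the spread between type IIb libraries. On the log2(FPKM + 1) scale with limma it was called in untrained mice (adjusted p = 0.0343). In each type IIb group Actn2 was highest in the library with the most genes detected: the libraries in order held 4291, 5910 and 10932 genes with at least 10 counts when trained and 3636, 9170 and 6002 when untrained. The part of detection in the Actn2 values was not tested.

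The paralog pairs were then set against each other within each library, which removes the library total from the comparison. Actn3 made up 1.12% ± 0.957 of the summed FPKM of Actn2 and Actn3 in type I trained and 0.198% ± 0.131 in type I untrained libraries, against 96.8% ± 2.97 in type IIb trained and 96.9% ± 3.39 in type IIb untrained libraries (SD, n = 3 each). Myoz1 made up 1.70% ± 0.245 of the summed FPKM of Myoz1 and Myoz2 in type I trained and 6.47% ± 8.66 in type I untrained libraries, against 99.99% ± 0.00553 in type IIb trained and 99.99% ± 0.00470 in type IIb untrained libraries. The wide spread in type I untrained fibres came from library 1, with 16.5% Myoz1, while libraries 2 and 3 each held 1.47%. Each fibre type difference in a share had an exact permutation p (two-sided, 3 libraries against 3) of 0.1, the smallest value that test can give, and 0.2 after adjustment over 8 share tests. Between trained and untrained fibres of 1 type the exact permutation p was between 0.4 and 1. With 3 libraries against 3 this test cannot fall under 0.05, so it does not show that the shares were unchanged. As a ratio of the highest to the lowest group mean, the sum of each pair varied less than its parts did. Myoz1 plus Myoz2 reached 1216 ± 437 FPKM in type I trained, 1595 ± 680 in type I untrained, 1231 ± 321 in type IIb trained and 997 ± 124 in type IIb untrained libraries. Actn2 plus Actn3 reached 565 ± 293, 993 ± 276, 2450 ± 1473 and 942 ± 335 FPKM in the same order of groups. Sums and shares depend on gene length, and the length used was 0.51 of the longest coding transcript for Myoz1 and 0.97 for Myoz2. Scaled to that transcript, Myoz2 had means of 1157 and 1462 in type I trained and untrained fibres. Myoz1 then had 632 and 512 in type IIb trained and untrained fibres. Its share then was 0.911% in type I trained and 3.68% in type I untrained libraries.

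**Figure D3:**
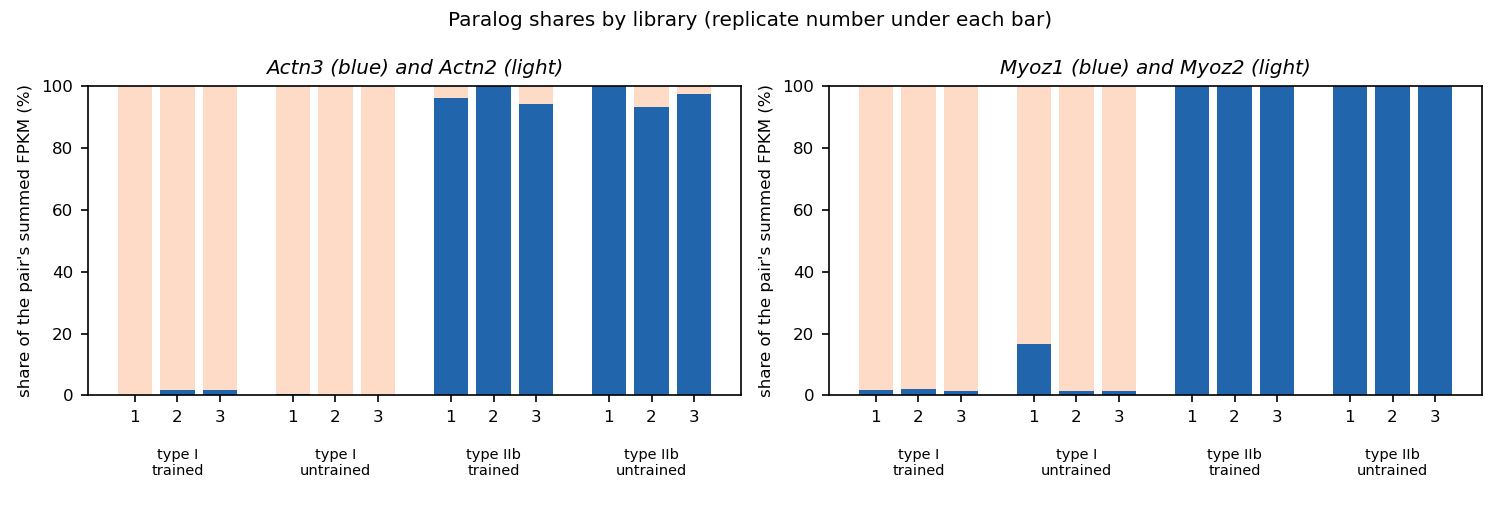
Share of each paralog in the summed FPKM of its pair, in percent, for each library by group; dark bars are Actn3 (left) and Myoz1 (right), light bars are Actn2 and Myoz2. The dark share is at most 1.71% for Actn3 and 16.5% for Myoz1 in type I libraries and at least 93.3% for Actn3 in type IIb libraries.

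Ldb3 (ENSMUSG00000021798; chr14:34526603-34588682, minus strand) encodes ZASP, also called cypher, a PDZ-LIM protein that ties alpha-actinin to the lattice. It was the steadiest of the 8 genes, with 694, 386 and 741 FPKM in type I trained and 934, 674 and 499.9 FPKM in type I untrained libraries, against 443, 342 and 514 FPKM in type IIb trained and 436, 443 and 499 FPKM in type IIb untrained libraries. Between the fibre types the log2 fold change was 0.12 ± 0.39 in trained mice (edgeR adjusted p = 1.00) and 0.09 ± 0.39 in untrained mice (edgeR adjusted p = 0.989). The untrained groups just failed to overlap in FPKM, by a factor of 1.001, while the pooled level after TMM scaling was 1.08-fold lower in type I, so the direction was not settled.

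Tcap (ENSMUSG00000007877; chr11:98383811-98384953, plus strand) encodes telethonin, which caps the ends of titin at the Z-disc. It had 923, 987 and 1879 FPKM in type I trained and 3217, 4154 and 3193 FPKM in type I untrained libraries, against 909, 2261 and 5304 FPKM in type IIb trained and 591, 2475 and 1429 FPKM in type IIb untrained libraries. The type I untrained libraries lay close together and above all type I trained and all type IIb untrained libraries. Type I over type IIb, the log2 fold change was -1.57 ± 0.54 in trained mice (edgeR adjusted p = 0.478) and 0.71 ± 0.53 in untrained mice (edgeR adjusted p = 0.676), and neither was called. Leaving out single libraries moved the value in trained mice between -1.94 (without type IIb trained library 1) and -0.97 (without type IIb trained library 3), and that in untrained mice between 0.23 (without type IIb untrained library 1) and 1.32 (without type IIb untrained library 2). Counted by FPKM groups that do not overlap, 6 of the 8 genes separated the fibre types in trained mice, 4 higher and 2 lower in type I, against 11.5% of all genes (9.07% higher and 2.45% lower), with Ldb3 and Tcap overlapping. In untrained mice 8 of the 8 did, 6 higher and 2 lower, against 32.8% of all genes (30.1% higher and 2.67% lower).

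None of the 8 genes was called for training by edgeR in either fibre type. In type I fibres 0.0% of all genes were called, with 345 genes (2.94%) at an unadjusted p under 0.05, 59 called by DESeq2 and 4 by limma-voom. In type IIb fibres 0.0% were called, with 965 genes (8.21%) at an unadjusted p under 0.05, 364 called by DESeq2 and 1 by limma-voom. No member was among the genes called for training by DESeq2 or by limma-voom in either fibre type. The median log2 fold change of the 8 genes, trained over untrained, was -0.25 in type I fibres, beside -0.28 over all genes, and 0.43 in type IIb fibres, beside 0.36 over all genes. Tcap in type I fibres was the single case in which trained and untrained groups did not overlap in FPKM, against 10.7% of all genes in that comparison (2.53% higher and 8.2% lower when trained), and 0 of the 8 genes did so in type IIb fibres, against 4.84% of all genes (2.46% higher and 2.38% lower).

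In type I fibres 2 of the 8 genes, Tcap and Csrp3, had an unadjusted training p under 0.05 in edgeR's test, and in type IIb fibres 0 did. For Tcap the log2 fold change, trained over untrained, was -1.26 ± 0.54 in type I fibres (edgeR adjusted p = 1) and 1.02 ± 0.53 in type IIb fibres (edgeR adjusted p = 0.604), where it ranged between 0.37 without type IIb trained library 3 and 1.63 without type IIb untrained library 2. The difference between the 2 training effects was -2.28 ± 0.76 (edgeR adjusted p = 0.418), in a test in which 0.0% of all genes were called and 1050 genes (8.94%) had an unadjusted p under 0.05. Csrp3 in type I fibres had a log2 fold change of 1.70 ± 0.81 (edgeR adjusted p = 1), which was 0.13 without type I trained library 3, the library with 6859 FPKM. Ankrd2 (-0.57 ± 0.62), Myoz2 (0.07 ± 0.69), Actn2 (-0.60 ± 1.96) and Ldb3 (0.11 ± 0.39) had log2 fold changes within their SE of 0 in type I fibres, with the signs of Myoz2 and Ldb3 turning under RLE scaling. Myoz1 in type I fibres had -1.43 ± 0.74 (edgeR adjusted p = 1), and this was 0.09 without type I untrained library 1. Actn3 had 1.86 ± 1.16 in type I and 1.61 ± 1.14 in type IIb fibres (edgeR adjusted p = 1 and 0.802). Ankrd2, Csrp3 and Myoz2 held 0 to 4 counts per type IIb group, so a decrease with training there was not detectable at this depth. The type IIb trained group held 0, 3 and 2 counts of them in that order, so they stayed near the floor after training.

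**Figure D4:**
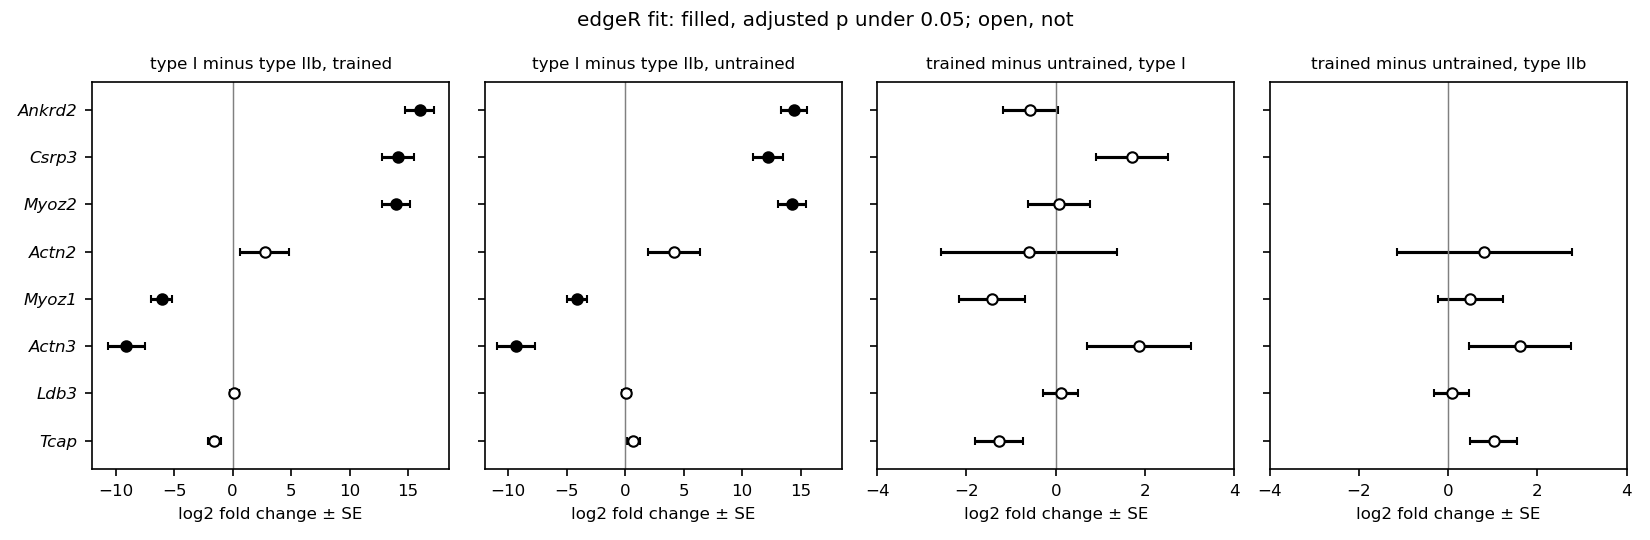
Log2 fold changes with SE of the 8 genes from edgeR, for type I minus type IIb in trained and in untrained mice (left 2 panels) and for trained minus untrained in type I and type IIb fibres (right 2 panels, narrower axis); filled points have an adjusted p under 0.05. Ankrd2, Csrp3 and Myoz2 are left out of the last panel because they held 4 or fewer counts per type IIb group, and no point in the training panels is filled.

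By mean FPKM, Tcap was the most abundant of the 8 in type I untrained (3521 ± 548), type IIb trained (2825 ± 2251) and type IIb untrained fibres (1498 ± 944, SD, n = 3 each). Csrp3 led in type I trained fibres at 2627 ± 3667 FPKM, where its SD exceeds its mean and its lead over Tcap (1263 ± 534) and Myoz2 (1194 ± 428) is within that spread. In type I untrained fibres Tcap was followed by Myoz2 (1509 ± 724), Actn2 (991 ± 274), Ankrd2 (990.4 ± 176), Csrp3 (779 ± 576) and Ldb3 (703 ± 219), and neighbours after Tcap differed by less than the larger of their SDs. In type IIb fibres Tcap, Actn3 and Myoz1 held the first 3 places in both groups, with neighbours apart by less than the larger of their SDs, and Ldb3 had rank 4, at 433 ± 86.7 FPKM when trained and 459.5 ± 34.6 when untrained. Actn2 had rank 5, at 66.0 ± 89.2 FPKM when trained and 36.7 ± 46.4 when untrained. The gene lengths behind these FPKM values equal the whole part of the mean GENCODE M21 transcript length for 8 of the 8 genes. They are 0.48 of the longest coding transcript for Ldb3 and 1.27 times it for Csrp3. Scaled to the longest coding transcript, Csrp3 has rank 3 and Actn2 rank 5 in type I untrained fibres, and Tcap keeps rank 1 there. No exon of the 8 genes overlaps an exon of another gene in GENCODE M21.

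Genes whose profile over the 12 libraries was most like that of each member, by Pearson r of log2(CPM + 1), are named next as a description, since all points share their libraries. Myoz2 was most like Cyfip2 (0.998) and Myl2, the slow myosin light chain (0.998). Ankrd2 was most like Rrad (0.994) and Nlrc3 (0.993), and Csrp3 like Sln, which encodes the calcium pump regulator sarcolipin (0.990), and Nlrc3 (0.987). Myoz1 was most like Pvalb, the calcium buffer of fast fibres (0.978), and Tpm1 (0.975), and Actn3 like Mybpc2, the fast myosin-binding protein C (0.972), and Myh4 (0.971). Actn2 was most like Bnip3 (0.976) and Top2b (0.959). Ldb3 had the weakest partners, Mfn2 (0.807) and Btbd1 (0.804), and Tcap was most like Gm17823 (0.942).

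Of 24 further genes of Z-disc structure, 23 were tested, and 2 of them, Pdlim1 and Cryab, were higher in type I fibres in both comparisons, with none lower. The list's median log2 fold change was 0.43 in trained and 0.41 in untrained mice, beside 0.21 and 0.85 over all genes. Pdlim1, an alpha-actinin-binding PDZ-LIM protein, had 144, 408 and 284 FPKM in type I trained and 388, 441 and 316 FPKM in type I untrained libraries, against 0, 0 and 3.15 FPKM in type IIb trained and 0, 0 and 0 FPKM in type IIb untrained libraries. It was 137-fold higher in type I in trained mice (edgeR adjusted p = 0.0261) and at least 4329-fold higher in untrained mice (edgeR adjusted p = 0.00173). Cryab, the small heat shock protein that guards desmin and titin, had 6784, 5311 and 14207 FPKM in type I trained and 7372, 8444 and 7090.3 FPKM in type I untrained libraries, against 667, 709 and 860.2 FPKM in type IIb trained and 1671, 691 and 1038 FPKM in type IIb untrained libraries. It was 8.76-fold higher in type I in trained mice (edgeR adjusted p = 0.000119) and 4.61-fold higher in untrained mice (edgeR adjusted p = 0.00293).

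Of 13 titin-linked and stretch-responsive genes 12 were tested and 0 were called in any comparison. Medians for type I over type IIb were 0.32 in trained and 0.63 in untrained mice. For training they were 0.33 in type I and 0.40 in type IIb fibres. Though uncalled, Fhl1, Fhl2 and Smpx, named after their values were seen, were higher in type I without FPKM overlap in both comparisons. For Smpx in untrained mice the gap was only a factor of 1.001, with a log2 fold change of 0.10 ± 0.48, so its direction there was not settled. For Fhl1 the pooled ratio was 26.6 in trained and 69.1 in untrained mice. In untrained mice Ankrd1, Ankrd23 and Sqstm1 were also higher without overlap, and Fhl3 was lower without overlap. All other genes of this list overlapped in both comparisons. Over all genes 11.5% did not overlap in trained and 32.8% in untrained mice. Ankrd1, the closest relative of Ankrd2 and named here after its values were seen, had 30.3, 0.0530 and 1369.5 FPKM in type I trained and 162, 28.1 and 72.0 FPKM in type I untrained libraries, against 0, 1.00 and 52.6 FPKM in type IIb trained and 0.553, 1.57 and 2.01 FPKM in type IIb untrained libraries. Its highest value was in type I trained library 3, the library in which Csrp3 was highest. Of 11 calcineurin and NFAT genes, the pathway that calsarcins bind, 10 were tested and 0 were called, with medians of -0.01 in trained and 0.27 in untrained mice for type I over type IIb. Both non-muscle alpha-actinins, Actn1 and Actn4, were tested and not called. None of the 4 lists held a gene called for training.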

How the data were processed

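RNA sequencing counts and FPKM values of 12 myofiber libraries were used. The deposited table of whole-number read counts per gene was not normalised, and the authors' FPKM values are scaled to gene length and library total. Per the submitters' processing notes the tools included TopHat2 and the build mm10; which program counted reads, on which annotation, is not given in the sources used here. Libraries were made with SMART-Seq HT and Nextera XT, which does not mark strand, per the labels' protocols. Each FPKM value equalled its count over deposited length and library total within 0.1% for 94.5% of nonzero values. There were 0 unused columns.

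Samples were grouped by their titles. The named genes were the 8 members, at most 4 called genes of each of 4 further lists, and the 2 genes most like each member. A few uncalled genes of those lists were named after their values were seen. The members and lists were chosen with earlier results of these data known. Counts were fitted in R 4.3.3 with edgeR 4.0.16 (quasi-likelihood, robust, TMM, all 12 libraries, 1 mean per group), after its expression filter (minimum count 10, minimum total count 15) left 11747 genes, and p-values were adjusted over all of them at 0.05. SE is the absolute log2 fold change over the square root of edgeR's F statistic. Pooled ratios are group counts over TMM-scaled library totals. Where a group had 0 counts, 3 counts for the whole group were put in their place and the ratio is given as "at least"; where it had 1 to 3, the ratio is the ratio of the counts themselves with a counting interval. Alternatives used DESeq2 1.42.0, limma 3.58.1 on weighted counts and on log2(FPKM + 1) or log2(FPKM + 0.1), RLE scaling, other filters, a replicate block and left-out libraries. The edgeR step was tested on simulated data. Library totals were 8026397 to 24995288 counts.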

Additional observations from a re-analysis of the deposited data

How the results depend on the processing

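Over all genes, the number called for type I against type IIb in untrained mice (54) was 123 without the filter, 82 on the compared groups alone, 1031 with DESeq2, 2106 with limma-voom, 329 on log2(FPKM + 1), 307 on log2(FPKM + 0.1) and 27 without the 3 libraries highest in endothelial markers. The count without those 3 libraries has type I untrained library 2 alone in its group. It therefore cannot show how far the calls in untrained mice hold. In trained mice (63) the number called was 346, 176, 126 and 115 with DESeq2, limma-voom and the 2 FPKM scales. Training calls (0) numbered 7 in type I and 9 in type IIb fibres without the filter, 59 and 364 with DESeq2 and 4 and 1 with limma-voom, and 1 in type IIb fibres on the compared groups alone and without either set of set-aside libraries. The difference of training effects had 26 calls without the filter and 394 with DESeq2. Of the 8 genes, limma-voom called 3 in untrained mice, against 2106 of all 11747 genes, and 1 in trained mice, against 176 of all 11747.

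Leaving out 1 library gave 3 to 5 of the 8 genes called and 23 to 65 over all genes in untrained mice, 4 to 5 and 33 to 76 in trained mice, and 0 to 2 over all genes for training in type IIb fibres and for the difference of training effects. Values whose sign changed were all uncalled. Leaving out 1 library moved Ldb3 between -0.0791 and 0.34 (untrained) and -0.22 and 0.27 (trained) for fibre type, between -0.24 and 0.28 (type I) and -0.0705 and 0.14 (type IIb) for training. For training it moved Myoz1 between -1.93 and 0.0854 and Myoz2 between -0.21 and 0.80 in type I fibres, and Actn2 between -1.03 and 2.65 in type IIb fibres. The training difference in the Actn3 share of type IIb fibres moved between -1.89 and 1.47 points, and that in the Myoz1 share between -7.27 and 0.234 points in type I and -0.00424 and 0.0015 points in type IIb fibres.

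Other settings turned these signs. For fibre type, Ldb3 was -0.26 (untrained) and -0.0347 (trained) with limma-voom and -0.000495 (untrained) without the 2 libraries with the fewest genes. For training in type I fibres, Ldb3 was -0.23 with RLE and DESeq2, -0.22 on both FPKM scales and -0.14 without the 3 libraries. Without those 3, type I untrained library 2 was alone in its group. Myoz2 was -0.23 with RLE and DESeq2, -0.13 with limma-voom, -0.31 on both FPKM scales, -0.0413 with the replicate block and -0.80 without the 3 libraries, and Actn3 was -0.16 with limma-voom. For training in type IIb fibres, Ldb3 was -0.10 on both FPKM scales, -0.0729 without the 3 and -0.0344 without the 2 libraries, and Actn2 was -3.41 with limma-voom and -1.21 without the 3 libraries. The cause was not tested. RLE moved the median of all genes to 1.17 for fibre type in untrained mice (TMM 0.85) and to -0.57 for training in type I fibres (TMM -0.28).

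Same-numbered libraries correlated at -0.0600 to 0.199 in their deviations from group means. Some of these values lay above the highest one for differently numbered libraries, and others lay below it. Number 3 had 0.199 against -0.0276 between type I and type IIb fibres in trained mice. It had -0.0600 against 0.207 between trained and untrained type IIb fibres. Such correlations, with so few libraries a group, cannot decide whether the numbers pair libraries, so pairing was neither shown nor excluded. With the replicate block 4 of the 8 were called for fibre type in trained mice, against 41 of all 11747 genes. Actn3 had an edgeR adjusted p of 0.138 in trained and 0.141 in untrained mice, and Ankrd2, Csrp3, Myoz1 and Myoz2 kept their calls in both. With 3 libraries a group and 1 count worth 0.0400 to 0.125 CPM, a decrease with training in genes near the floor in type IIb fibres cannot be measured.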
